A study of Mus musculus with 12 samples.

Results

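The genes described here encode the proteins of the mitochondrial ribosome whose symbols are Mrpl or Mrps followed by a number and at most 1 further letter. They were taken from the deposited count table by that spelling, a rule that uses no measured value, though the members were chosen with earlier results of these data known. The rule found 77 genes among the 23955 symbols of the table, of which 48 were Mrpl genes (large subunit by name) and 29 were Mrps genes (small subunit by name). All 77 had enough reads to be tested, among 12323 tested genes.

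The study drove mesenchymal stem cells of mouse bone marrow, which can give rise to fat cells, toward adipocytes for 14 days. The cells were bought from a commercial supplier, came from female C57BL/6 mice and were used at passages 9 to 10, and the labels give no age. The TBT group received 50 nM tributyltin, an organotin compound known to activate the nuclear receptors RXR and PPARγ. The ROSI group received 500 nM rosiglitazone, a thiazolidinedione drug that activates PPARγ. The DMSO group received the vehicle at 0.1%. All 3 groups also received the same inducers, which were 1 uM dexamethasone, 0.5 mM isobutylmethylxanthine and insulin at 5 ug/mL, so the DMSO libraries come from induced cells and not from undifferentiated ones. Each group held 4 libraries, read as single 50 nt reads without strand information after removal of ribosomal RNA. It is not stated in the labels that the 4 libraries were grown as separate cultures, so each p-value is set against a library-to-library spread that may be technical.

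The mitochondrial ribosome translates the few mRNAs of the mitochondrial genome, all of which encode subunits of the respiratory chain and the ATP synthase. Its RNAs come from mitochondrial DNA, but all of its proteins are encoded in the nucleus, made in the cytosol and imported. Some have counterparts in bacterial ribosomes and others are found only in mitochondria. White and brown fat cells gain mitochondria as they mature, and the nuclear factors NRF1, GABPA (an ETS family factor) and YY1 are known regulators of nuclear genes for mitochondrial proteins.

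Promoters of 6 members that passed the test in at least 1 comparison are shown, 5 that hold such an element before the start and 1 that does not, as examples of what was counted below. RefSeq windows on GRCm38.p6, which run from 250 bases before to 50 bases after each annotated start, were found for 68 of the 77 members. The build differs from mm9, the build named for the authors' data, and no coordinate of the authors' data was used. Both strands were searched for GCGCA followed by any base and GCGC (NRF1), CCGGAAG (ETS) and AANATGGCG (YY1). The sequences below run 5′ to 3′ on the gene's strand over the 250 bases before the start, with matches in capitals. Mrpl57 (chr14:57825989-57826238, plus strand) and Mrpl30 (chr1:37890227-37890476, plus strand) each hold an NRF1 match. Mrpl17 (chr7:105811088-105811337, minus strand) holds an ETS match and an NRF1 match. Mrpl18 (chr17:12916092-12916341, minus strand) and Mrps18a (chr17:46110754-46111003, plus strand) each hold an ETS match. Mrpl16 (chr19:11770165-11770414, plus strand) holds none of these letters in the window. Of the 12 members that passed in any comparison, 9 had a window; the 3 not shown, Mrpl37, Mrps10 and Mrps25, hold no match in these 250 bases, so 5 of 9 do, and over the whole windows 6 of 9 (66.7%).
Mrpl57: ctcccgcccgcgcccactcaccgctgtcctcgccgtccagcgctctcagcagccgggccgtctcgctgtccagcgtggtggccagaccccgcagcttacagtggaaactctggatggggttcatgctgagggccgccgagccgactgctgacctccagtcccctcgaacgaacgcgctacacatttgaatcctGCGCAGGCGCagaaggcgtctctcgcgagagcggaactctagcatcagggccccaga
Mrpl30: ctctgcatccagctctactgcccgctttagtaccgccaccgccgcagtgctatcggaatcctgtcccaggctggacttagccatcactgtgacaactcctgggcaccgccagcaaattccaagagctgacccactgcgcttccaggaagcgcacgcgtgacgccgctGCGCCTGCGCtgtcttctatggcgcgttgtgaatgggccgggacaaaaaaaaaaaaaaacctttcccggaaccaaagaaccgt
Mrpl17: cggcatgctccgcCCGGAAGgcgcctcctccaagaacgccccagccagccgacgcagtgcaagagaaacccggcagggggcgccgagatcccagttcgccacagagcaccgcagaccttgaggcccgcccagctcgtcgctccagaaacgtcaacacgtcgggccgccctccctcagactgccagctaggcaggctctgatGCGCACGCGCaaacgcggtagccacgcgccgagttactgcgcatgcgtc
Mrpl18: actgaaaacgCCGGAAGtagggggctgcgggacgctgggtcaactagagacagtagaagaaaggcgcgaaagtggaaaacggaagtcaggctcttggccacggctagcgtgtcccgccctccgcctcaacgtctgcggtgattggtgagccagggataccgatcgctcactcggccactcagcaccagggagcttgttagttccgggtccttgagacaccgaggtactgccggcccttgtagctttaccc
Mrps18a: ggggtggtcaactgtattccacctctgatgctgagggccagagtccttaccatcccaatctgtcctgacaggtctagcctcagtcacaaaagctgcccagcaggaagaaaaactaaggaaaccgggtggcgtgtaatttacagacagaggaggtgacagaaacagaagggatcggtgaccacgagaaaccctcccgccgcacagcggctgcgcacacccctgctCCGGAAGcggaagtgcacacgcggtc
Mrpl16: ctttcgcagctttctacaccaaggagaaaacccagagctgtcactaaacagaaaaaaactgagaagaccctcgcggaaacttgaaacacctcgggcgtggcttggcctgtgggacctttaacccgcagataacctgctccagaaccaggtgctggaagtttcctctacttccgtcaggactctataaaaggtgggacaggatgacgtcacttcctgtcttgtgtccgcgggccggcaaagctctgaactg

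Over the whole windows, NRF1 letters were found for 13 of 68 members (19.1%) against 11.8% of 9109 other tested genes. ETS letters were found for 25 members (36.8%) against 20.1%, and YY1 letters for 10 members (14.7%) against 6.15%. At least 1 of the 3 motifs was present for 41 members (60.3%), for 33.2% of the other tested genes and for 15.9% of the 27025 genes of the promoter table. The share was 61.9% among 42 large-subunit promoters and 57.7% among 26 small-subunit promoters. By motif the subunits differed more. NRF1 letters were found for 23.8% of the large-subunit and 11.5% of the small-subunit promoters, the latter near the 11.8% of other tested genes. ETS letters were found for 33.3% and 42.3%, and YY1 letters for 11.9% and 19.2%, in the same order. These shares are descriptions of letters in a window and were not tested.

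The 12 libraries held 4027152 to 7474654 counts in total, of which 6922 to 14391 (0.152% to 0.204%) fell on the 77 members. The lowest count of any member in any library was 5, for a large-subunit gene, so the least abundant members were measured with few reads. TBT replicate 4 stood apart from the other TBT libraries, and results of the members that rest on it are given with and without it. The ribosomal RNA precursor Rn45s took 6.85% of its counts, against 0.399% to 0.67% in TBT replicates 1 to 3. Base composition was compared on log2 values taken relative to each gene's mean over the 12 libraries. In TBT replicates 1 to 3 the median of the most GC-rich genes lay below that of the most GC-poor ones, by 0.28 to 0.57. The same difference, rich minus poor, was 0.11 in TBT replicate 4 and between -0.028 and 0.44 in the ROSI and DMSO libraries. Adipocyte markers, 8 genes such as Fabp4 and Plin1, summed to 2840 to 3930 CPM (counts scaled to a common library total and for library composition) in TBT libraries, 5550 to 7130 CPM in ROSI libraries and 1120 to 2410 CPM in DMSO libraries. Lpl, Fabp4 and Cd36 make up most of that sum, and not all 8 markers moved with it: in edgeR 4 were higher in TBT than in DMSO libraries, and Adipoq (adiponectin) was lower, at 2.30 ± 0.856 CPM in TBT, 13.3 ± 1.9 CPM in ROSI and 10.7 ± 3.26 CPM in DMSO libraries (SD, n = 4 each; log2 fold change of TBT against DMSO -2.17 ± 0.29 (SE), adjusted p = 0.00019 in edgeR). Cebpa, an adipogenic transcription factor, stood at 21.7 ± 1.2 CPM in TBT, 55.7 ± 13.9 CPM in ROSI and 22.1 ± 5.81 CPM in DMSO libraries. Stromal markers, 8 genes such as Pdgfra and Col1a1, summed to 1620 to 2000 CPM in TBT, 824 to 957 CPM in ROSI and 2530 to 3320 CPM in DMSO libraries. Pdgfra, Ly6a and Col3a1 make up most of that sum. Of 7 tested, 5 were lower in ROSI and 3 in TBT against DMSO in edgeR. Nt5e went the other way without a call, at 7.59 ± 1.95 CPM in TBT, 6.15 ± 2.6 CPM in ROSI and 5.64 ± 2.15 CPM in DMSO libraries. Osteoblast markers, 5 genes of which 2 were tested, summed to 209 to 285 CPM in TBT, 145 to 213 CPM in ROSI and 217 to 272 CPM in DMSO libraries. Sums of 6 macrophage markers (17.9 to 33.5 CPM) and 5 endothelial markers (2.26 to 9.36 CPM) were low in every library. The DMSO libraries also differed from both others in the counts of sensory receptor genes and in the number of genes seen: 1489 sensory receptor genes summed to 115 to 194 CPM in TBT, 62.8 to 75.8 CPM in ROSI and 294 to 773 CPM in DMSO libraries, and 15755 to 17140 symbols had a count in TBT, 15502 to 16758 in ROSI and 18537 to 18923 in DMSO libraries. The adipocyte, stromal and sensory receptor sums moved with the groups, and their part in the results below was not tested.

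Among the members, levels per transcript length ranged from 1.14 RPKM (CPM per kilobase of transcript) to 58.9 RPKM in the large subunit, with a median of 11.5, and from 1.71 to 41.1 RPKM in the small subunit, with a median of 12.0. The highest large-subunit genes per length were Mrpl33, a homologue of a bacterial protein, at 58.9 RPKM, Mrpl30, also a bacterial homologue, at 55.0 RPKM, and Mrpl42, a protein found only in mitochondria, at 43.5 RPKM, each as a mean over the 12 libraries. In the small subunit they were Mrps21, a bacterial homologue, at 41.1 RPKM, and the mitochondria-specific Mrps31 and Mrps33 at 36.1 and 29.03 RPKM. Mrpl33 stood at 58.1 RPKM in TBT, 59.8 RPKM in ROSI and 58.7 RPKM in DMSO libraries. Its log2 fold changes were 0.02 for ROSI against DMSO, -0.01 for TBT against DMSO and -0.03 for TBT against ROSI, each with a standard error of 0.17. Mrpl42 stood at 47.0 RPKM in TBT, 44.5 RPKM in ROSI and 39.2 RPKM in DMSO libraries, and Mrps33 at 31.0, 31.0 and 25.1 RPKM in the same order. Neither gene passed the test in any comparison. Mrps21 had 33.7 RPKM in TBT, 44.5 RPKM in ROSI and 45.0 RPKM in DMSO libraries, and it did not pass either (adjusted p = 0.16 in edgeR for TBT against ROSI and for TBT against DMSO).

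Summed over each subunit, the mitochondrial ribosomal genes were highest in ROSI libraries. The large-subunit sum was 990.5, 1186, 1028 and 1132 CPM in TBT replicates 1 to 4, 1266, 1277, 1192 and 1216 CPM in ROSI replicates 1 to 4, and 1029, 1133, 1030 and 1008 CPM in DMSO replicates 1 to 4. All ROSI libraries lay above all TBT and DMSO libraries, while TBT and DMSO libraries overlapped. The separation of ROSI from TBT rests on Mrpl17, the large-subunit gene with the most reads, at a mean of 100.7 CPM. With Mrpl17 taken out of the sum, TBT and ROSI libraries overlap, and ROSI libraries still lie above DMSO libraries. The small-subunit sum was 639.6, 722, 668.5 and 730.9 CPM in TBT, 751.4, 770.5, 669.9 and 699.2 CPM in ROSI, and 615.4, 647.2, 641.8 and 615.3 CPM in DMSO libraries. Again all ROSI libraries lay above all DMSO libraries, and TBT libraries overlapped with both. With Mrps25, the small-subunit gene with the most reads, taken out of the sum, ROSI replicate 3 falls just below DMSO replicate 2. As means the large subunit summed to 1084 ± 90.5 CPM in TBT, 1238 ± 40.4 CPM in ROSI and 1050 ± 56.3 CPM in DMSO libraries, and the small subunit to 690.2 ± 43.6, 722.8 ± 46.4 and 629.9 ± 17.0 CPM in the same order (SD, n = 4 each). No test was made of these sums, in which members with many reads weigh most. Medians over the members, on log2 values relative to each gene's mean, did overlap between ROSI and DMSO libraries. The large-subunit median was 0.14 in DMSO replicate 2, against 0.086 and 0.11 in ROSI replicates 3 and 4. The small-subunit median was 0.11 in DMSO replicate 2, against 0.055 and -0.0047 in those ROSI libraries. DMSO replicates 1, 3 and 4 lay lower, at -0.15 to -0.062 (large) and -0.13 to -0.087 (small). The ratio of the 2 sums, large over small, was 1.54 to 1.64 in TBT, 1.66 to 1.78 in ROSI and 1.60 to 1.75 in DMSO libraries, so that TBT lay below ROSI without overlap and both overlapped with DMSO. That separation rests on Mrps25, at a mean of 158.2 CPM, which was higher in every TBT than in every ROSI library. With Mrps25 taken out of the small-subunit sum, the ratios of TBT and ROSI libraries overlap. In part of the Mrps25 exons, reads cannot be told apart from those of an overlapping gene, as given below. In such bulk libraries, fewer cells of a type and less RNA per cell cannot be told apart.

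**Figure D1:**
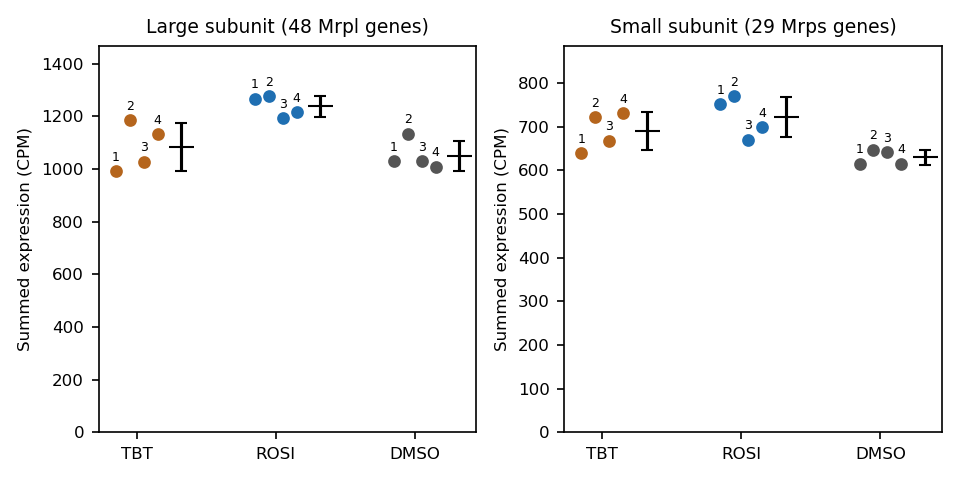
Summed expression of the 48 Mrpl genes (left) and the 29 Mrps genes (right) in CPM (y axis, from 0) for TBT, ROSI and DMSO libraries (x axis). Each point is a library with its replicate number, and the bars give the mean ± SD (n = 4). The ROSI points lie above the DMSO points in both panels, at 1192 to 1277 against 1008 to 1133 CPM for the large subunit.

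Under rosiglitazone most members had fold changes slightly above 0 relative to vehicle, but few of them passed the test. The log2 fold change of ROSI against DMSO was above 0 for 38 of 48 large-subunit genes and 25 of 29 small-subunit genes, together 81.8% of the members, against 50.9% of all tested genes. The median log2 fold change was 0.19 in the large and 0.20 in the small subunit, beside 0.01 over all tested genes (0.0088 before rounding), and single members ranged from -0.18 (Mrpl45) to 0.69 (Mrpl38). In the edgeR quasi-likelihood test with Benjamini-Hochberg adjustment over all 12323 genes, 3 members were higher in ROSI at an adjusted p under 0.05, which is 3.90% of 77, while 10.0% of all tested genes were called higher (22.6% in either direction). No member was called lower, while 12.6% of all tested genes were. All 3 calls were in the large subunit. Both counts of 0, the lower members of either subunit and the higher small-subunit members, came from edgeR; at an unadjusted p under 0.05 no member was lower and 4 small-subunit members were higher. DESeq2's Wald test called 2 small-subunit genes higher, limma on the deposited log2 values also called 2, and neither called a member lower. Some other settings raised the count of higher members to near or above the share of all genes. DESeq2's Wald test called 9 (11.7%, beside 11.6% of all tested genes). Without TBT replicate 4, edgeR called 12 (15.6%, beside 12.9%), all 3 reported ones among them and none lower. Other settings lowered the count. With the replicate number as a block edgeR called 2 (2.6%, beside 8.04%), and without ROSI replicate 2 it called 1 (1.3%, beside 7.59%).

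Mrpl57, a mitochondria-specific protein of the large subunit once known as MRP63, was measured at 25.2, 34.2, 30.8 and 27.6 CPM in TBT libraries, 49.4, 40.6, 36.5 and 34.7 CPM in ROSI libraries and 23.5, 25.97, 31.1 and 26.6 CPM in DMSO libraries. Every ROSI library lay above every DMSO library and above every TBT library. The fold change of ROSI against DMSO was 0.58 ± 0.15 on the log2 scale (SE; adjusted p = 0.0098 in edgeR). This call held when any 1 of the 12 libraries was left out (adjusted p 0.0058 to 0.041) and under 9 of 9 other settings.

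Mrpl30, a homologue of a bacterial large-subunit protein, had 50.2, 51.5, 62.9 and 48.3 CPM in TBT, 67.7, 59.4, 54.9 and 60.2 CPM in ROSI and 45.6, 47.7, 45.0 and 46.2 CPM in DMSO libraries. The DMSO libraries lay close together and below all others. Its log2 fold change was 0.39 ± 0.12 (adjusted p = 0.029 in edgeR), and the call ended without DMSO replicate 1, 3 or 4 or ROSI replicate 1 or 2, at an adjusted p of up to 0.089. Mrpl38, part of the central protuberance of the large subunit, had 7.51, 6.76, 11.1 and 10.2 CPM in TBT, 11.3, 10.9, 11 and 13.4 CPM in ROSI and 8.79, 7.96, 7.598 and 4.74 CPM in DMSO libraries. All ROSI values exceeded all DMSO values, and the TBT values spread over both. Its log2 fold change was 0.69 ± 0.22 (adjusted p = 0.033 in edgeR), and the call ended without DMSO replicate 3 or 4 or ROSI replicate 1, 2 or 4, at an adjusted p of up to 0.11.

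The member just outside the threshold was Mrps7, a homologue of a bacterial small-subunit protein. It had 21.5, 21.4, 21.2 and 23.9 CPM in TBT, 24.8, 24.8, 19.7 and 24.1 CPM in ROSI and 16.6, 20.1, 17.96 and 15.7 CPM in DMSO libraries. ROSI replicate 3 lay below DMSO replicate 2, so the groups overlapped. Its difference of ROSI against DMSO was 0.41 ± 0.14 on the log2 scale (adjusted p = 0.052 in edgeR). Members whose 4 ROSI libraries all lay above the 4 DMSO libraries numbered 10 (8 large, 2 small), or 13.0% of the members, the same share as among all tested genes (13.0%). No member had all ROSI libraries below DMSO, beside 15.4% of all tested genes. These 10 were Mrpl12, Mrpl15, Mrpl16, Mrpl17, Mrpl30, Mrpl38, Mrpl43, Mrpl57, Mrps31 and Mrps35. For 71 of 77 members (92.2%) the 95% interval of the fold change lay within 2-fold either way, beside 70.6% of all tested genes. A p above the threshold does not show that a member was unchanged, but for those 71 a change beyond 2-fold lies outside the interval.

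**Figure D2:**
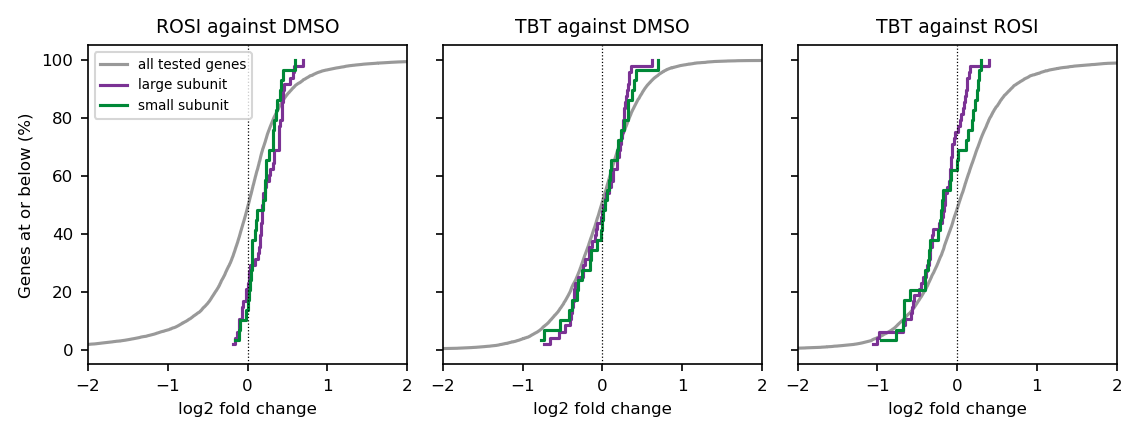
Share of genes (y axis, in percent) at or below a given log2 fold change (x axis) for ROSI against DMSO, TBT against DMSO and TBT against ROSI; grey is all 12323 tested genes, purple the 48 Mrpl genes and green the 29 Mrps genes. The member curves lie right of the grey curve in most of the first panel (medians 0.19 and 0.20), near it in the middle of the second and left of it in the third (medians -0.16 and -0.18), and they are steeper than the grey curve, with member values between -1.06 and 0.70.

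Under tributyltin the members' fold changes relative to vehicle lay on both sides of 0. The log2 fold change of TBT against DMSO was above 0 for 26 of 48 large-subunit genes and 16 of 29 small-subunit genes (54.5% of the members, beside 49.1% of all tested genes). Its median was 0.025 in the large and 0.029 in the small subunit, beside -0.011 over all tested genes, and single members ranged from -0.77 (Mrps5) to 0.70 (Mrps35). In edgeR, 3 members were called higher (3.90%, beside 8.22% of all tested genes) and none lower (beside 7.03%; 15.2% of all tested genes were called in either direction). At an unadjusted p under 0.05, 6 members were higher and 6 lower. DESeq2's Wald test called 2 members lower and limma on the deposited log2 values none. For 70 of 77 members the 95% interval lay within 2-fold either way (90.9%, beside 71.6% of all tested genes).

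In the large subunit the call was Mrpl16, the homologue of a conserved bacterial protein. It had 44.5, 58.3, 43.0 and 34.1 CPM in TBT, 37.4, 40.5, 37.6 and 45.9 CPM in ROSI and 21.2, 33.2, 28.0 and 34.5 CPM in DMSO libraries. TBT replicate 4 lay just below the highest DMSO library, and the other TBT libraries lay above all DMSO libraries. In TBT against DMSO it rose by 0.62 ± 0.18 on the log2 scale (adjusted p = 0.026 in edgeR), and the call ended without DMSO replicate 1 or 3 or TBT replicate 1, 2 or 3, at an adjusted p of up to 0.097. In ROSI libraries, which all lay above DMSO, its log2 fold change was 0.46 ± 0.18 (adjusted p = 0.070 in edgeR).

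In the small subunit the calls were the mitochondria-specific Mrps35 and Mrps25. Mrps35 had 24.0, 32.6, 17.1 and 19.8 CPM in TBT, 21.8, 21.0, 19.4 and 24.7 CPM in ROSI and 9.50, 13.1, 17.3 and 16.9 CPM in DMSO libraries. The TBT and DMSO libraries overlapped, since TBT replicate 3 lay below DMSO replicate 3, whereas all ROSI libraries lay above DMSO. TBT against DMSO gave a log2 fold change of 0.70 ± 0.21 (adjusted p = 0.036 in edgeR), and the call ended without DMSO replicate 1 or 2 or TBT replicate 1 or 2, at an adjusted p of up to 0.14. ROSI against DMSO gave 0.59 ± 0.21 (adjusted p = 0.057 in edgeR).

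Mrps25 had 197.8, 197.6, 174.6 and 159.6 CPM in TBT, 148.7, 159.1, 145.7 and 153.7 CPM in ROSI and 140.7, 120.7, 151.8 and 148.6 CPM in DMSO libraries. All TBT libraries lay above all ROSI and DMSO libraries. Its log2 fold change of TBT against DMSO was 0.38 ± 0.12 (adjusted p = 0.038 in edgeR). The call held without ROSI replicate 1 or 2 or TBT replicate 4 and ended without any of the other 9 libraries, at an adjusted p of up to 0.11; with GC-corrected offsets the adjusted p was 0.096. Exons of its annotated transcripts share 3533 bases with exons of Nr2c2, a nuclear receptor gene on the opposite strand. The transcript used for its length has 6073 bases. Without strand information, reads in the shared bases cannot be told apart, and how the authors' counter treated them is not known. Counts credited to Nr2c2 averaged 250 CPM in TBT, 200 CPM in ROSI and 204 CPM in DMSO libraries (log2 fold change of TBT against DMSO 0.29, adjusted p = 0.12 in edgeR). In all, exons of 25 members overlap another annotated gene, 17 of them a protein-coding one. Mrpl18 shares 17 bases with Tcp1, and the other 10 members called in any comparison share none.

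Just outside the threshold were Mrpl37, a mitochondria-specific large-subunit protein, at a log2 fold change of -0.73 ± 0.24 (adjusted p = 0.051 in edgeR), and Mrps18a at -0.73 ± 0.24 (adjusted p = 0.052 in edgeR). Members without overlap between TBT and DMSO numbered 3 higher (Mrpl30, Mrps7 and Mrps25), or 3.90% beside 7.42% of all tested genes, and 2 lower (Mrpl3 and Mrpl45), or 2.60% beside 8.26%.

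TBT replicate 4 bore on these counts. Without it, edgeR called 7 members higher (9.09%, beside 16.6% of all tested genes) and 10 lower (13.0%, beside 16.1%) in TBT against DMSO. Those higher were Mrpl15, Mrpl16, Mrpl39, Mrpl43, Mrps25, Mrps30 and Mrps35, with a median transcript GC content of 48.2%. Those lower were Mrpl4, Mrpl18, Mrpl20, Mrpl21, Mrpl34, Mrpl37, Mrps5, Mrps6, Mrps18a and Mrps21, with a median of 53.6%. All 3 members called on the full set were among them. With GC-corrected offsets as well, the counts were 9 higher (11.7%, beside 14.6% of all tested genes) and 7 lower (9.09%, beside 13.3%). The part of GC content in these calls was not tested beyond that correction.

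**Figure D3:**
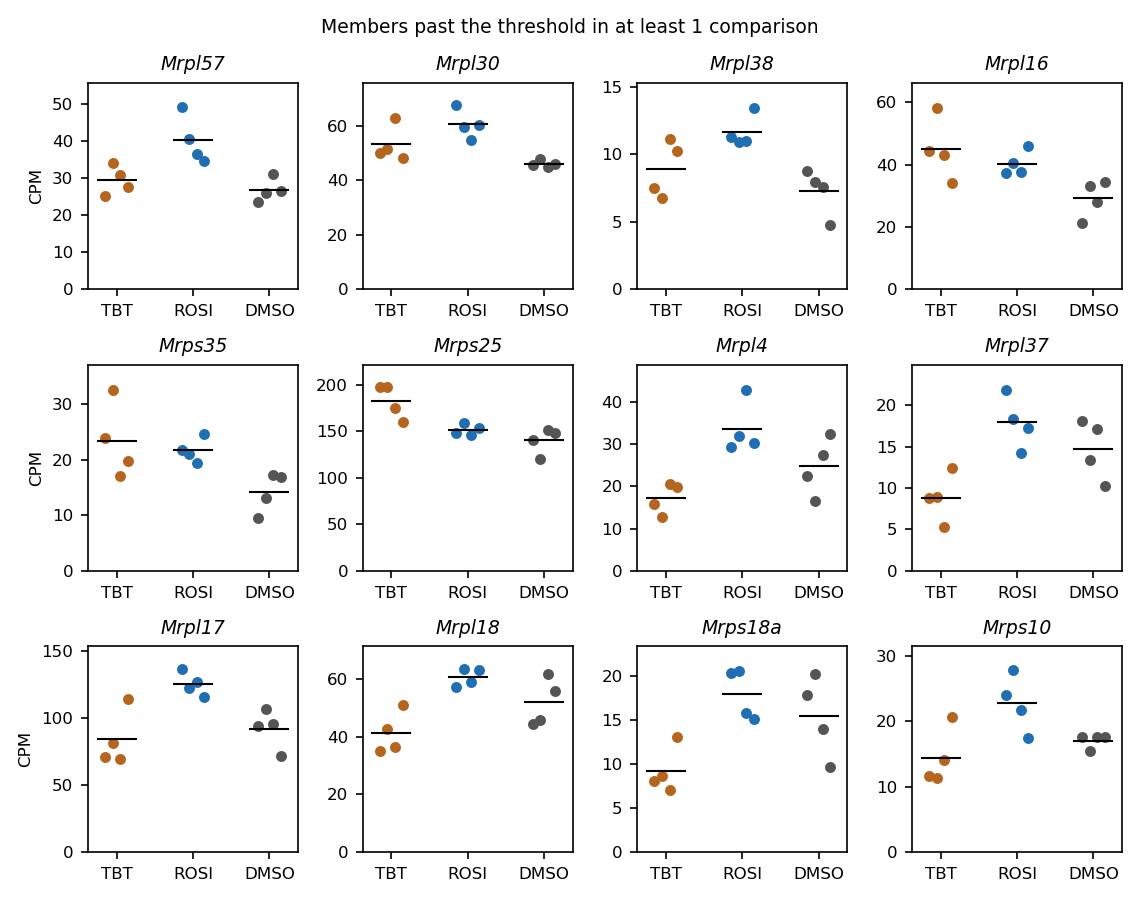
Expression in CPM (y axis, from 0) of the 12 members that passed the test in at least 1 comparison, in TBT, ROSI and DMSO libraries (x axis). Each point is a library, in replicate order, and the line is the mean of 4. Mrpl57 in ROSI lies above the other groups (34.7 to 49.4 CPM), and Mrpl4, Mrpl37 and Mrps18a in TBT lie below ROSI without overlap.

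With the ligands set directly against each other, most members had fold changes below 0, lower under tributyltin than under rosiglitazone, and few of them passed the test. TBT and ROSI were given at 50 nM and 500 nM, doses that differ, and both comparisons with vehicle share the DMSO libraries. The log2 fold change of TBT against ROSI was above 0 for 12 of 48 large-subunit and 11 of 29 small-subunit genes (29.9% of the members, beside 51.5% of all tested genes). The median was -0.16 in the large and -0.18 in the small subunit, beside 0.017 over all tested genes, and single members ranged from -1.06 (Mrpl23) to 0.40 (Mrpl39). In edgeR, 7 members were lower, 5 in the large and 2 in the small subunit. They make up 9.09% of the members, beside 11.1% of all tested genes called lower, so the count is near that of genes in general (23.9% of which were called in either direction). None was higher, beside 12.8% of all tested genes; at an unadjusted p under 0.05, 2 members were higher and 16 lower, and neither DESeq2's Wald test nor limma on the deposited log2 values called a member higher. The 95% interval lay within 2-fold either way for 64 of 77 members (83.1%, beside 67.5%).

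Mrpl4, a homologue of a bacterial protein that lines the peptide tunnel, had 15.7, 12.7, 20.5 and 19.8 CPM in TBT, 29.3, 31.8, 42.8 and 30.3 CPM in ROSI and 22.3, 16.6, 27.5 and 32.2 CPM in DMSO libraries. All TBT libraries lay below all ROSI libraries, and DMSO overlapped with both. Its log2 fold change of TBT against ROSI was -0.97 ± 0.21 (adjusted p = 0.0031 in edgeR; 0.00097 to 0.014 with any 1 library left out).

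Mrpl37 had 8.76, 8.88, 5.35 and 12.4 CPM in TBT, 21.8, 18.3, 14.2 and 17.3 CPM in ROSI and 18.1, 13.3, 17.1 and 10.3 CPM in DMSO libraries. Again TBT lay below ROSI without overlap and DMSO spread over both. Its log2 fold change was -1.01 ± 0.24 (adjusted p = 0.0067 in edgeR; 0.00068 to 0.025 with any 1 library left out). Mrpl18, which binds at the central protuberance, had 35.0, 42.7, 36.4 and 50.9 CPM in TBT, 57.2, 63.4, 59.0 and 63.0 CPM in ROSI and 44.2, 45.9, 61.5 and 55.8 CPM in DMSO libraries. TBT replicate 4 was the highest of its group, yet below all ROSI libraries. A log2 fold change of -0.56 ± 0.15 resulted (adjusted p = 0.012 in edgeR), and the call held with any 1 library left out.

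Mrpl17, the large-subunit member with the most reads, had 70.9, 81.4, 70.0 and 114.6 CPM in TBT, 136.6, 122.6, 126.9 and 115.8 CPM in ROSI and 94.6, 106.9, 95.5 and 72.2 CPM in DMSO libraries. The ROSI libraries lay above all others, though TBT replicate 4 came close to the lowest of them. TBT against ROSI gave -0.58 ± 0.16 on the log2 scale (adjusted p = 0.016 in edgeR), and the call ended without TBT replicate 1 or 3, at an adjusted p of up to 0.063. For Mrpl57, whose values are given above, it was -0.45 ± 0.15 (adjusted p = 0.040 in edgeR), and the call ended without DMSO replicate 2, ROSI replicate 1 or 2 or TBT replicate 1, 3 or 4, at an adjusted p of up to 0.16.

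In the small-subunit list, Mrps18a had 8.04, 8.69, 7.06 and 13.1 CPM in TBT, 20.3, 20.5, 15.8 and 15.1 CPM in ROSI and 17.8, 20.1, 14.0 and 9.64 CPM in DMSO libraries. TBT lay below ROSI without overlap, and DMSO overlapped with both. Its log2 fold change was -0.96 ± 0.24 (adjusted p = 0.0088 in edgeR; 0.00079 to 0.034 with any 1 library left out). Despite its name, Mrps18a is a homologue of a bacterial small-subunit protein that sits in the large subunit of the mammalian mitochondrial ribosome. Mrps10, a bacterial homologue in the head of the small subunit, had 11.6, 11.4, 14.1 and 20.7 CPM in TBT, 24.1, 27.8, 21.7 and 17.5 CPM in ROSI and 17.6, 15.4, 17.7 and 17.5 CPM in DMSO libraries. TBT replicate 4 lay above ROSI replicate 4, so these groups overlapped. TBT against ROSI gave a log2 fold change of -0.66 ± 0.20 (adjusted p = 0.023 in edgeR), and the call ended without ROSI replicate 1 or 2 or TBT replicate 1, 2 or 3, at an adjusted p of up to 0.086.

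Mrpl40, another protein of the central protuberance, was the member just outside the threshold, at a log2 fold change of -0.66 ± 0.25 (adjusted p = 0.065 in edgeR). It averaged 5.16 ± 1.64 CPM in TBT, 8.18 ± 1.46 CPM in ROSI and 5.96 ± 1.17 CPM in DMSO libraries (SD, n = 4 each). Members whose TBT libraries all lay below ROSI numbered 7, of which 6 were large-subunit genes (9.09%, beside 9.89% of all tested genes), and Mrps25 alone had all TBT libraries above ROSI (1.30%, beside 10.9%). Without TBT replicate 4, 19 members were called lower (24.7%, beside 18.3% of all tested genes) and 2 higher in edgeR (Mrpl39 and Mrps25; 2.60%, beside 19.9%). Of the 7 members called on the full set, 6 were among those 19 and Mrpl57 was not (log2 fold change -0.41, adjusted p = 0.050 in edgeR, just past the threshold). With GC-corrected offsets as well, the counts were 18 lower (23.4%, beside 16.5% of all tested genes) and 3 higher (3.90%, beside 17.5%).

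**Figure D4:**
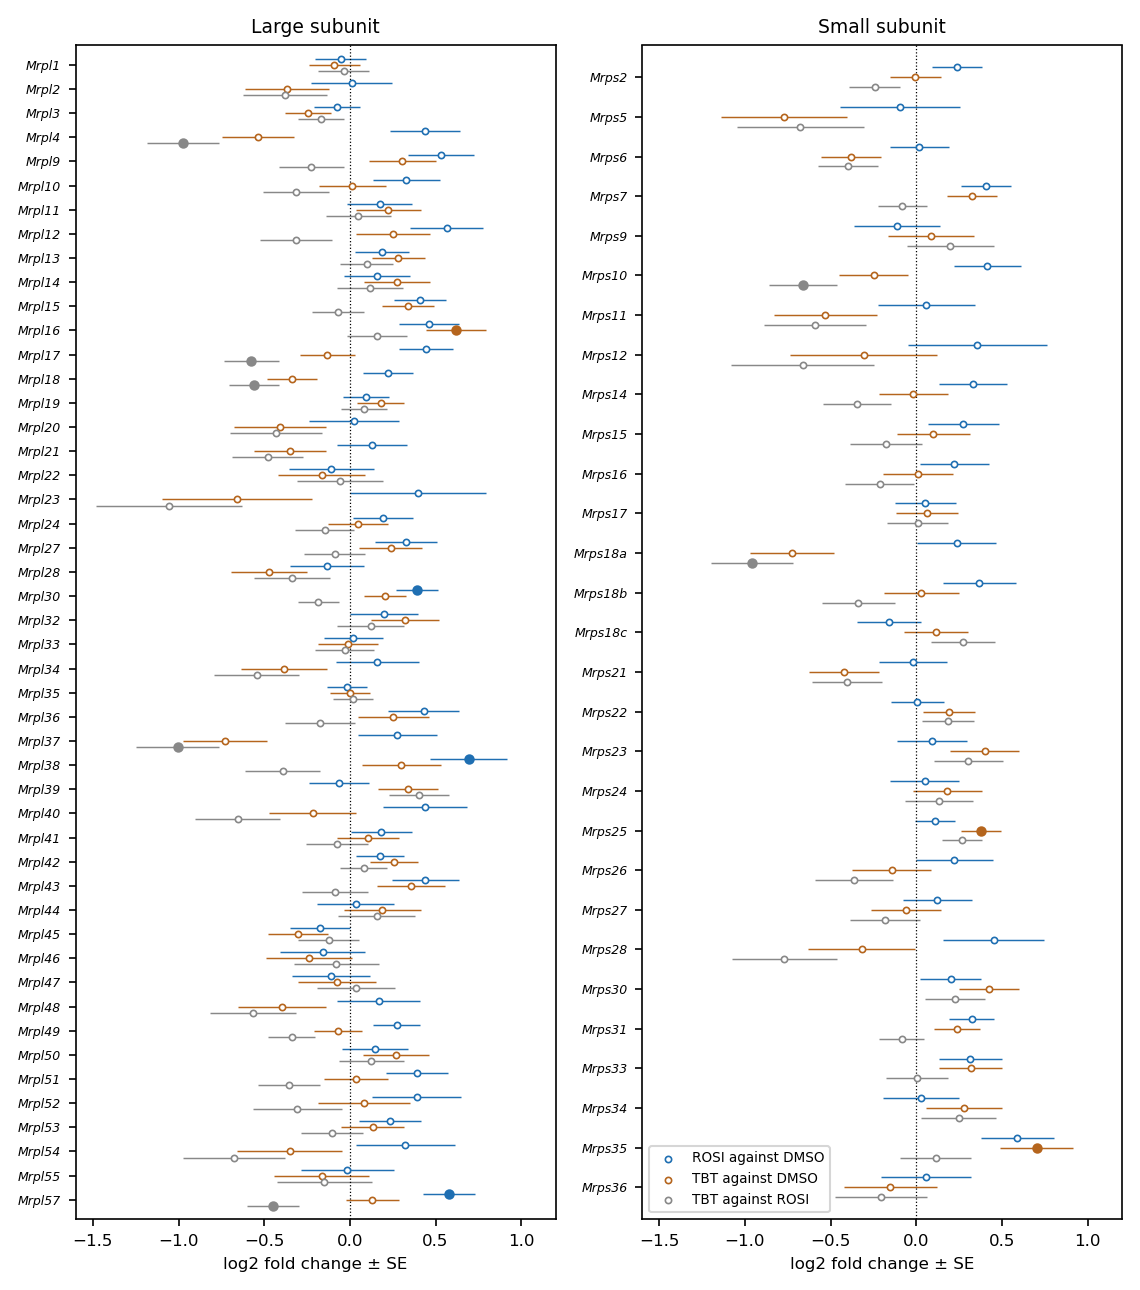
Log2 fold change ± SE (x axis) of each of the 77 members (y axis), large subunit left and small subunit right, for ROSI against DMSO (blue), TBT against DMSO (orange) and TBT against ROSI (grey); filled points passed an adjusted p under 0.05. Filled points are 3 blue, 3 orange and 7 grey, and all grey ones lie left of 0.

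GC content of the transcripts ran with the fold changes that involve TBT. Members held 39.6% to 60.6% GC, with a median of 50.9%, beside 49.7% over tested genes with a known transcript. For TBT against ROSI the median log2 fold change was -0.32 in the 39 GC-richer members and -0.05 in the 38 GC-poorer ones (-0.047 before rounding). Corresponding medians were -0.06 and 0.05 for TBT against DMSO, and 0.23 and 0.18 for ROSI against DMSO. Across the 77 members, Pearson's r between GC content and log2 fold change was -0.40 for TBT against ROSI, -0.32 for TBT against DMSO and 0.14 for ROSI against DMSO, and across 12214 tested genes it was -0.30, -0.25 and 0.092 in the same order. Genes of a library share its depth and base composition, so these are descriptions without a p. With GC-corrected offsets, all 7 members called lower in TBT against ROSI were still called. Mrpl4 then stood at -0.69 (adjusted p = 0.026 in edgeR), Mrpl37 at -0.82 (adjusted p = 0.016) and Mrps18a at -0.75 (adjusted p = 0.018).

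**Figure D5:**
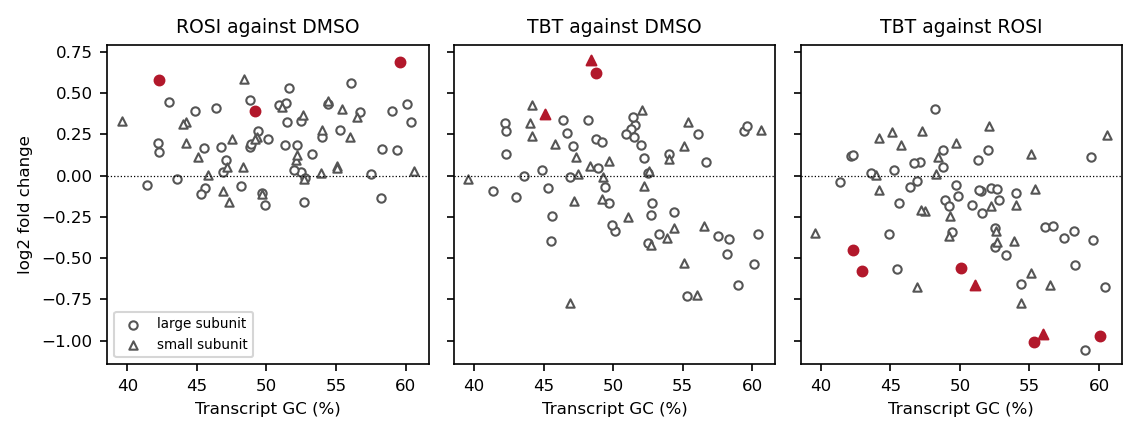
Log2 fold change (y axis) against transcript GC content in percent (x axis) for the 77 members in the 3 comparisons; circles are Mrpl genes, triangles Mrps genes, and red marks an adjusted p under 0.05. The cloud falls toward GC-rich transcripts in both panels with TBT and not in that of ROSI against DMSO (Pearson's r -0.32, -0.40 and 0.14).

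Groups of members by place in the ribosome are given by count and median. The stalk proteins Mrpl10, Mrpl11 and Mrpl12, which recruit translation factors, had log2 fold changes of 0.17 to 0.56 in ROSI against DMSO and none passed. Mrpl12, which also binds the mitochondrial RNA polymerase, had 7.33, 16.2, 12.4 and 11.1 CPM in TBT, 15.5, 16.1, 12.8 and 14.0 CPM in ROSI and 9.50, 10.8, 8.70 and 10.6 CPM in DMSO libraries. All its ROSI libraries lay above DMSO and the TBT libraries spread over both, and its ROSI fold change of 0.56 ± 0.21 missed the threshold (adjusted p = 0.064 in edgeR). Of the 6 proteins of the central protuberance, which touches the small subunit, 1 was called higher in ROSI against DMSO (Mrpl38), or 16.7% beside 10.0% of all tested genes. In TBT against ROSI, 1 was called lower (Mrpl18), or 16.7% beside 11.1%. Medians of the 6 were 0.27 for ROSI against DMSO, -0.23 for TBT against DMSO and -0.47 for TBT against ROSI, where all 6 lay below 0. Among 6 proteins at the exit of the peptide tunnel none was called, beside 22.6%, 15.2% and 23.9% of all tested genes in the same order of comparisons. Their medians were -0.016, -0.06 and -0.09. At an unadjusted p under 0.05 in edgeR, only TBT against ROSI had any, 2.

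Large-subunit genes with a bacterial counterpart (29) and without (19) had medians of 0.19 and 0.23 for ROSI against DMSO and of -0.17 and -0.12 for TBT against ROSI. In the small subunit those with a counterpart (17) and without (10) had medians of 0.22 and 0.12 for ROSI against DMSO and of -0.34 and 0.06 for TBT against ROSI. The 2 small-subunit classes also differed in median GC content, at 52.6% with and 47.8% without a counterpart, beside 50.9% and 51.4% in the large subunit. In TBT against ROSI, 1 of the 17 was called lower (5.88%, beside 11.1% of all tested genes), and none of the 10 was called. No difference between these classes was tested, nor was the part of GC content in it.

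Several members have roles or places that their symbols do not show. Mrps30, which like Mrps18a sits in the large subunit, had 20.0, 23.4, 19.7 and 15.7 CPM in TBT, 18.8, 16.4, 14.1 and 18.5 CPM in ROSI and 12.1, 16.6, 13.0 and 16.9 CPM in DMSO libraries. The groups overlapped, and TBT against DMSO gave 0.43 ± 0.18 (adjusted p = 0.11 in edgeR). Mrps36, which is known as a component of the 2-oxoglutarate dehydrogenase complex, averaged 4.73 ± 1.21 CPM in TBT, 5.49 ± 1.23 CPM in ROSI and 5.25 ± 1.33 CPM in DMSO libraries (SD, n = 4 each) and had fold changes of 0.21 or less in size. Mrpl44, a large-subunit protein with a ribonuclease III fold, averaged 9.54 ± 3.18 CPM in TBT, 8.56 ± 0.754 CPM in ROSI and 8.45 ± 1.01 CPM in DMSO libraries. Its 95% intervals on the log2 scale ran from -0.44 to 0.51 in ROSI against DMSO and from -0.28 to 0.66 in TBT against DMSO, so a 2-fold change lay outside both.

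Genes that work with the mitochondrial ribosome were counted in the same fits, from lists chosen with earlier results of these data known. Their calls are given for all 12 libraries only, and not without TBT replicate 4 or with GC-corrected offsets. Of 6 tested ribosomal proteins with other symbols, such as Dap3 and Ptcd3, none was called against DMSO (1 at an unadjusted p under 0.05, in TBT). Of all tested genes, 22.6% were called in ROSI and 15.2% in TBT against DMSO. Chchd1, a small-subunit protein, was higher in TBT than in ROSI (20.5 ± 4.52 against 11.8 ± 3.2 CPM, and 13.4 ± 2.47 CPM in DMSO). It was the 1 call among the 6 in that comparison (16.7%, beside 12.8% of all tested genes called higher). Its log2 fold change was 0.79 ± 0.22 (adjusted p = 0.015 in edgeR), and TBT replicate 4 (15.7 CPM) lay just below ROSI replicate 4 (15.8 CPM). Its direction was thus opposite to that of the 7 called members.

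Of 24 tested assembly and RNA-modification factors, 5 were higher in ROSI against DMSO (20.8%, beside 10.0% of all tested genes), 5 were higher in TBT against DMSO (20.8%, beside 8.22%), and 3 were lower in TBT against ROSI (12.5%, beside 11.1%, near the general share), with no call in the opposite direction. Their medians were 0.21, 0.13 and -0.10. Grsf1, an RNA-binding protein of mitochondrial RNA granules, averaged 172 ± 23.2 CPM in TBT, 186 ± 16.3 CPM in ROSI and 113 ± 14.9 CPM in DMSO libraries, with log2 fold changes of 0.61 ± 0.13 for TBT (adjusted p = 0.0070 in edgeR) and 0.72 ± 0.13 for ROSI (adjusted p = 0.00065 in edgeR) against DMSO. Rpusd3, a pseudouridine synthase, was also higher under both ligands, at 6.52 ± 0.818 CPM in TBT, 7.36 ± 1.24 CPM in ROSI and 3.41 ± 1.23 CPM in DMSO libraries (log2 fold changes 0.90 ± 0.27 and 1.07 ± 0.26, adjusted p = 0.031 and 0.0059 in edgeR). Mpv17l2, needed for assembly in human cells, was lower in TBT than in ROSI libraries, at 6.81 ± 1.62 against 14.4 ± 2.31 CPM (log2 fold change -1.09 ± 0.22, adjusted p = 0.0018 in edgeR).

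Of 15 translation factors and activators, 2 were higher in ROSI against DMSO (13.3%, beside 10.0% of all tested genes) and 1 in TBT against DMSO (6.67%, beside 8.22%). TBT against ROSI gave 1 higher and 1 lower (6.67% each, beside 12.8% and 11.1%). Lrpprc, which stabilises mitochondrial mRNAs, averaged 133 ± 15.3 CPM in TBT, 153 ± 9.65 CPM in ROSI and 108 ± 7 CPM in DMSO libraries, and passed in ROSI against DMSO (log2 fold change 0.51 ± 0.12, adjusted p = 0.0038 in edgeR). Taco1, an activator of COX1 translation, averaged 5.77 ± 0.764 CPM in TBT, 11 ± 3.75 CPM in ROSI and 5.09 ± 1.40 CPM in DMSO libraries. It was higher in ROSI against DMSO (1.08 ± 0.26, adjusted p = 0.0062 in edgeR) and lower in TBT against ROSI (-0.93 ± 0.26, adjusted p = 0.017 in edgeR). Guf1, a homologue of the bacterial elongation factor LepA, was higher in TBT at 75.6 ± 17.0 CPM, against 43.6 ± 8.50 CPM in ROSI and 39.0 ± 4.29 CPM in DMSO libraries (log2 fold change 0.96 ± 0.18 against DMSO, adjusted p = 0.0024 in edgeR).

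Among tRNA synthetases and related enzymes, Gatc, a subunit of the mitochondrial glutamyl-tRNA amidotransferase, was higher in both ROSI (log2 fold change 0.60 ± 0.19, adjusted p = 0.033 in edgeR) and TBT (0.84 ± 0.19, adjusted p = 0.0089 in edgeR) against DMSO. Its TBT replicate 4, at 31.7 CPM, lay below DMSO replicate 3 at 33.3 CPM. Iars2 was higher in TBT against DMSO (0.66 ± 0.20, adjusted p = 0.036 in edgeR). It had 94.5, 96.1, 92 and 46.5 CPM in TBT and 62.7, 38.6, 55.8 and 51.8 CPM in DMSO libraries. Of all tested genes, 10.0% were called higher in ROSI and 8.22% in TBT against DMSO. Of 10 genes for mitochondrial DNA expression, Tefm and Tfb2m were higher in ROSI against DMSO (20%, beside 10.0% of all tested genes) and Ssbp1 in TBT against DMSO (10%, beside 8.22%). Peo1, the helicase, was lower in TBT against ROSI (10%, beside 11.1%). Of 10 regulators of mitochondrial biogenesis, 1 was called higher in ROSI against DMSO (10%, beside 10.0% of all tested genes) and 2 lower in TBT against ROSI (20%, beside 11.1%). The gene higher in ROSI was Ppargc1b, a coactivator, at 2.59 ± 0.550 CPM in TBT, 8.39 ± 1.94 CPM in ROSI and 3.04 ± 1.76 CPM in DMSO libraries. Its log2 fold change against DMSO was 1.37 ± 0.34 (adjusted p = 0.0064 in edgeR). Against ROSI, both Ppargc1b (-1.67 ± 0.35, adjusted p = 0.0027 in edgeR) and Ppargc1a (-0.56 ± 0.17, adjusted p = 0.025 in edgeR) were lower in TBT. The 13 mRNAs of the mitochondrial genome, which these ribosomes translate, were not found in the count table under the symbols searched. They were therefore not analysed.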

How the data were processed

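Bulk RNA-seq of 12 libraries in 3 groups of 4 was used, grouped by the library titles. The authors deposited raw read counts per gene symbol and, in a second table, regularized-log (log2) values. The submitters' processing notes name the build mm9 and FastQC, SAMtools and DESeq2 without versions; for aligner, counter and annotation, the sources used here give no name. Counts were tested in R 4.3.3 with edgeR 4.0.16 (filterByExpr, TMM factors, glmQLFit and glmQLFTest on all 12 libraries with 9 residual degrees of freedom, Benjamini-Hochberg adjustment over 12323 genes, threshold 0.05); the deposited log2 values entered 1 alternative. CPM values are TMM-scaled, and RPKM values divide them by the length of the longest protein-coding GENCODE transcript with a RefSeq entry, which need not be the authors' gene model. GC content came from the same transcripts. The fit was tested on simulated data. Alternatives used DESeq2 1.42.0, limma 3.58.1, other filters, GC-corrected offsets, the replicate number as a block, and each library left out in turn. The members and all lists were chosen with earlier results of these data known. No pair of libraries agreed within sampling noise (lowest chi-square per degree of freedom 4.66).

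Named were the called members with the largest fold changes per comparison, subunit and direction (up to 8), the 3 members per subunit highest per length, Mrps30, Mrps18a, Mrps36, Mrpl12 and Mrpl44, members just inside and outside the threshold, and up to 3 genes per list with the smallest p; other members named as without overlap, or called without a library, were chosen after their values were seen. A result from the list of tRNA synthetases is not reported here. Intervals are 95%, and depth covers counting error only.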

Additional observations from a re-analysis of the deposited data

Results flagged for a closer look

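In 8 of 81 groups of 4 values that were examined, a library lay far from the other 3, by a gap that took up most of the group's range; chance gives such a gap in about 1 in 20 groups. In TBT replicate 4, Mrpl40 stood at 7.61 CPM (4.11 to 4.49 CPM in the other TBT libraries) and Mrps7 at 23.9 CPM (21.2 to 21.4 CPM). The same library had 6.85% of its counts on Rn45s, against 0.399% to 0.67% in the other TBT libraries. In ROSI replicate 4, Mrpl38 stood at 13.4 CPM (10.9 to 11.3 CPM in the others), and in ROSI replicate 3 Mrps7 stood at 19.7 CPM (24.1 to 24.8 CPM). Among DMSO libraries, Mrpl33 stood at 32.8 CPM in replicate 2 (26.2 to 26.6 CPM in the others), Mrps10 at 15.4 CPM in replicate 2 (17.5 to 17.7 CPM) and Mrpl42 at 30.7 CPM in replicate 4 (24.2 to 25 CPM). The causes of these gaps were not tested.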

How the results depend on the processing

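The calls of Mrpl57 in ROSI against DMSO and of Mrpl4, Mrpl37, Mrps18a and Mrpl18 in TBT against ROSI held with any 1 library left out and under all 9 other planned settings; each other called member lost its call under at least 1. Over all settings the median log2 fold change stayed between 0.15 and 0.28 (large) and 0.13 and 0.26 (small) in ROSI against DMSO, and between -0.23 and -0.12 (large) and -0.26 and -0.099 (small) in TBT against ROSI, whereas in TBT against DMSO it took both signs (-0.048 to 0.12 and -0.047 to 0.13). With no filter on low counts the median of all genes shifted to -0.18 (ROSI) and -0.22 (TBT) against DMSO. For ROSI against DMSO, the 3 large-subunit genes called higher became 7 with DESeq2's Wald test, 5 with no filter, 8 with only the 2 groups compared, 5 with GC-corrected offsets, with or without the block, 5 with limma on the deposited log2 values and 9 without TBT replicate 4 and with GC-corrected offsets (added after seeing the data); small-subunit genes called higher became 1, 2, 1, 1, 3, 2 and 3 with DESeq2 size factors, the Wald test, no filter, only 2 groups, GC-corrected offsets, limma and that last setting. For TBT against DMSO, large-subunit genes called higher became 0 with only 2 groups and 5 in the last setting, those lower 1 with the Wald test, no filter and a mean of at least 5 CPM and 4 in the last setting; small-subunit genes higher became 1 with no filter, 0 with only 2 groups and 4 in the last setting, and those lower 1 with the Wald test, no filter and a mean of at least 5 CPM and 3 in the last setting. Over all genes, 1199 were called with only 2 groups and 3528 in the last setting. For TBT against ROSI the last setting gave 2 large and 1 small genes higher and 11 large and 7 small genes lower. Leaving out 1 library at a time gave 2219 to 3537, 1019 to 4124 and 1732 to 4826 calls over all genes in the 3 comparisons (ROSI against DMSO, TBT against DMSO, TBT against ROSI), 1 to 9, 0 to 4 and 0 to 1 large genes higher, 0 to 6 and 3 to 11 large genes lower in both TBT comparisons, 0 to 3, 0 to 3 and 0 to 1 small genes higher, and 0 to 4 and 1 to 8 small genes lower in both TBT comparisons. The lowest count in TBT against DMSO came without DMSO replicate 1 and the highest counts without TBT replicate 4. The causes of these shifts were not tested.

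Deviations of same-numbered libraries from their group means correlated at -0.43 to 0.14 across genes. Libraries with different numbers were not compared in this way, so it is not settled whether the numbers pair the libraries. The share of Rn45s was lowest in replicate 4 among DMSO (2.64%) and ROSI libraries (1.36%) and highest in replicate 4 among TBT libraries (6.85%). With the replicate block, 2289, 1160 and 2154 genes were called in the 3 comparisons, or 1139 in TBT against DMSO with GC-corrected offsets as well. In TBT against DMSO, small genes higher numbered 0 under the block, with or without GC-corrected offsets; in TBT against ROSI, small genes lower numbered 1 in both.

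Sign changes were followed for the named members alone, and none of the fold changes that changed sign was a called one. Mrps21 in ROSI against DMSO gave 0.0064 with no filter and 0.0059 with limma. Mrpl42 in TBT against ROSI gave -0.010, -0.017 and -0.084 with GC-corrected offsets alone, with the block and without TBT replicate 4. Mrps33 in TBT against ROSI gave -0.0062 (DESeq2 size factors), -0.0064 (Wald test), -0.016 (no filter), -0.00735 (mean of at least 5 CPM), -0.0049 (block), -0.019 (only 2 groups), -0.00057 (limma), and -0.145, -0.148 and -0.158 with GC-corrected offsets alone, with the block and without TBT replicate 4. With 1 library left out, Mrpl33 ranged over -0.072 to 0.13 (ROSI against DMSO), -0.12 to 0.086 (TBT against DMSO) and -0.15 to 0.072 (TBT against ROSI), Mrpl44 over -0.026 to 0.086, -0.049 to 0.34 and -0.084 to 0.29, Mrps36 over -0.086 to 0.21 and -0.28 to 0.0022 against DMSO, Mrps21 over -0.076 to 0.073 in ROSI against DMSO, and Mrpl42 over -0.0046 to 0.13, Mrps31 over -0.18 to 0.0045 and Mrps33 over -0.076 to 0.081 in TBT against ROSI.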
